A study of Mus musculus with 8 samples.

Results

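The fibrillar and associated interstitial collagens followed here were 10 genes, chosen by their symbols from a fixed list: Col1a1, Col1a2, Col3a1, Col5a1, Col5a2, Col6a1, Col6a2, Col6a3, Col12a1 and Col14a1. All 10 were found among the 28001 features of the single-cell RNA-seq tables, and each was matched by its gene identifier to the mouse annotation. Their transcripts were counted in the 8 mouse forelimb libraries as unique molecular identifiers (UMIs, each of which marks 1 captured mRNA molecule), in cells with at least 3000 UMIs and at most 10% mitochondrial UMIs. Of 57469 barcodes, 53085 passed. The analysis asked how the levels of these collagens changed over limb stages, and how they differed between cell classes, limb segments, cycling and non-cycling cells, and sorted and unsorted cells.

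The 6 sorted libraries held tdTomato+ cells sorted from forelimbs of Hic1CreERT2/CreERT2;Rosa26LSLtdTomato/tdTomato embryos on the C57BL/6J strain, 1 library each for embryonic day (E) 11.5, E12.5, E13.5 and E14.5 and for a proximal and a distal E16.5 segment. The other 2 libraries, whole 1 and whole 2, held lineage-negative cells of whole E11.5 limbs that were not selected for tdTomato, from the same cross per the study's methods. All dams had been gavaged with 7.5 mg tamoxifen at the tenth embryonic day, so that tdTomato marks cells in which the Hic1 locus was driving CreERT2 around that day, and their descendants. Hic1CreERT2 is a knock-in driver carried here on both copies, and sorted cells positive for blood, endothelial or erythroid surface antigens had been excluded. Each sorted library pooled the forelimbs of several embryos. The proximal E16.5 segment held the elbow region only, and the distal segment the distal zeugopod and the autopod (the hand). E11.5 to E13.5 libraries were made with the v2 reagent kit and E14.5 and E16.5 libraries with v3. Forelimbs were dissociated with Dispase at E11.5 and E12.5 and with Collagenase A and Pronase later. Stage and enzyme therefore cannot be told apart across the step from E12.5 to E13.5, nor stage and kit across the step from E13.5 to E14.5.

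Collagens are triple helices of 3 chains in which glycine recurs with a pair of other residues between, since only glycine fits the core of the helix. Type I collagen (Col1a1, Col1a2) forms the bulk of fibrils in skin, tendon and bone, and type III (Col3a1) joins it in soft connective tissue. Type V (Col5a1, Col5a2) starts fibrils and sets their diameter. Type VI (Col6a1, Col6a2, Col6a3) builds beaded microfilaments around cells, and types XII and XIV (Col12a1, Col14a1) sit on the surface of fibrils.

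The repeat can be read in the genes. In the annotated transcripts the longest unbroken run of glycine-led triplets spanned 338 triplets in Col1a1, 339 in Col1a2, 344 in Col3a1, 338 in Col5a1 and 339 in Col5a2. That run was 87 triplets long in Col6a1 and in Col6a2, 45 in Col6a3 and 32 in both Col12a1 and Col14a1. The run made up 69.8% of the coding bases of Col1a1, 25.5% of those of Col6a1 and 5.34% of those of Col14a1. Every coding exon lying wholly inside the longest run was a multiple of 9 bases long in all 10 genes. The coding exon in the middle of the run is printed for 1 gene of each kind, to show the unit that the 10 genes share and that the selection by symbol did not use. Each is given 5′ to 3′ on the coding strand from GENCODE M21 on GRCm38, and the capitals mark the first 2 bases of each glycine codon (GG).

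Col1a1, coding exon 27 of Col1a1-201, chr11:94944598-94944651, plus strand: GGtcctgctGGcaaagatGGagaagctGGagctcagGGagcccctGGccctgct
Col3a1, coding exon 27 of Col3a1-201, chr1:45335135-45335188, plus strand: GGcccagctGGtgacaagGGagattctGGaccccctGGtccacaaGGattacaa
Col5a2, coding exon 30 of Col5a2-201, chr1:45402079-45402132, minus strand: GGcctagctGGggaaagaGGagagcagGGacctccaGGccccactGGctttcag
Col6a1, coding exon 16 of Col6a1-201, chr10:76717400-76717462, minus strand: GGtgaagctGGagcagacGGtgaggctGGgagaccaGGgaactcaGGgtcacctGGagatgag
Col12a1, coding exon 58 of Col12a1-201, chr9:79609814-79609867, minus strand: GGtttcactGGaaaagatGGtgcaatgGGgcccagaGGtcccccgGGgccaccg
Col14a1, coding exon 40 of Col14a1-202, chr15:55487932-55487985, plus strand: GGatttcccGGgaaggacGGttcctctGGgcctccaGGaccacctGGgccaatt

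The Col1a1, Col3a1, Col5a2, Col12a1 and Col14a1 exons were 54 bases long, which is 6 triplets, and the Col6a1 exon was 63 bases long, which is 7. Some of the genes lay close together in the genome. Col3a1 and Col5a2 were 24614 bases apart on chromosome 1 and are read from opposite strands, and Col6a1 and Col6a2 were 85161 bases apart on chromosome 10 and are read from the same strand. The counts came from the 3′ ends of transcripts, so the exons above were not themselves sequenced.

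Depth and labels were examined before the results. Libraries held 31500092 to 198917131 UMIs over the cells used, with a median of 6788 to 17912 UMIs per cell. Clusters led by keratin genes were left out of all libraries, which the study did for its E16.5 data, and they held 943 cells at E16.5 proximal and at most 70 in any other library. tdTomato had a UMI in 87.8% to 99.9% of cells in the sorted libraries, and in 3.47% and 3.62% of cells in the whole 1 and whole 2 libraries, where no cell had 3 or more. Rps12, a ribosomal protein gene, stood at 6.72 to 8.13 CPM (UMIs per 1000000) in the sorted v2 libraries and at 2402 to 3902 in the v3 libraries, and the part of the kit in this was not tested. Rps27 stood at 1926 CPM in sorted E11.5 cells and at 44.5 and 59.5 in whole 1 and whole 2. Any pair of libraries shared at most 1.04% of the barcodes of the smaller one.

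Levels are given as CPM, the UMIs of a gene per 1000000 UMIs of all genes, summed over the cells of a library. With 1 library for each stage and segment there is no replicate check on those comparisons, no p-value is given for them, and intervals are exact 95% Poisson or binomial intervals that cover counting error only.

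All 10 collagens were higher at E16.5 proximal than at E11.5, by 4.05-fold (Col12a1) to 475-fold (Col14a1), and the summed share of the 10 in all UMIs went from 0.122% to 2.15%. The ratio was at least 2 for 10 of 10 genes, where 12.3% of the 9198 genes at 10 CPM or more were that much higher and 27.9% that much lower. The median log2 ratio over the 10 was 5.02. Cell type markers moved between these libraries too. Summed mitotic markers went from 1613 to 775 CPM, muscle fibre ones from 10.3 to 95.4 and erythroid ones from 0.317 to 110. Their part in the collagen ratios was not tested.

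The type I chains came first. Col1a1 stood at 256, 560, 709, 2803, 6513 and 7936 CPM in the 6 sorted libraries in order of stage, with the proximal segment before the distal one, and at 71.4 and 81.4 in whole 1 and whole 2. Col1a2 stood at 408, 626, 631, 1726, 4540 and 5438 CPM in the same 6 sorted libraries, and at 185 and 212 in the whole libraries. Both were highest in the E16.5 segments and lowest in the whole-limb libraries, and Col1a2 was level between E12.5 and E13.5, with a ratio of 1.01 (0.990 to 1.02).

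Col3a1, the type III chain, stood at 387, 935, 847, 2138, 5673 and 5811 CPM from E11.5 to E16.5 distal, and at 131 and 161 in the whole libraries. It was 2.42-fold higher at E12.5 than at E11.5 (2.37 to 2.47) and then lower at E13.5, at 0.906 of its E12.5 level (0.893 to 0.919).

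For type V, Col5a1 stood at 23.3, 51.2, 71.9, 230, 561 and 686 CPM in the sorted libraries and at 8.24 and 9.45 in whole 1 and whole 2. Col5a2 stood at 18.9, 56.3, 70.3, 344, 890 and 1073 CPM, and at 22.3 and 23.5 in whole 1 and whole 2. Col5a2 was the only one of the 10 whose level in sorted E11.5 cells lay below both whole-limb levels.

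The type VI chains had some of the larger ratios. Col6a1 stood at 17.4, 64.8, 94.6, 250, 1099 and 1038 CPM in the sorted libraries, and at 3.58 and 3.70 in the whole libraries. Col6a2 stood at 16.1, 45.0, 58.9, 189, 667 and 735 CPM, and at 3.79 and 3.27. Col6a3 stood at 7.71, 34.7, 43.8, 146, 698 and 738 CPM, and at 4.14 and 4.44. From E11.5 to E16.5 proximal these 3 chains were higher by 63.1-fold (58.0 to 68.7), 41.5-fold (38.1 to 45.4) and 90.5-fold (79.8 to 103).

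The fibril-surface collagens gave the smallest and the largest ratio between E11.5 and E16.5 proximal. Col12a1 stood at 82.8, 106, 98.4, 145, 335 and 402 CPM in the sorted libraries and at 16.3 and 16.4 in the whole libraries. Col14a1 stood at 1.21, 2.65, 7.47, 81.3, 573 and 472 CPM, and at 0.860 and 0.939 in the whole libraries. The Col14a1 level at E11.5 rested on 38 UMIs, so its 475-fold ratio has an interval of 346 to 671. In cells with none of 8 mitotic markers at 3000 UMIs the ratio was 1149. That value rests on 1099 E11.5 cells, which hold only a part of the 38 UMIs, and no interval was taken for it.

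**Figure D1:**
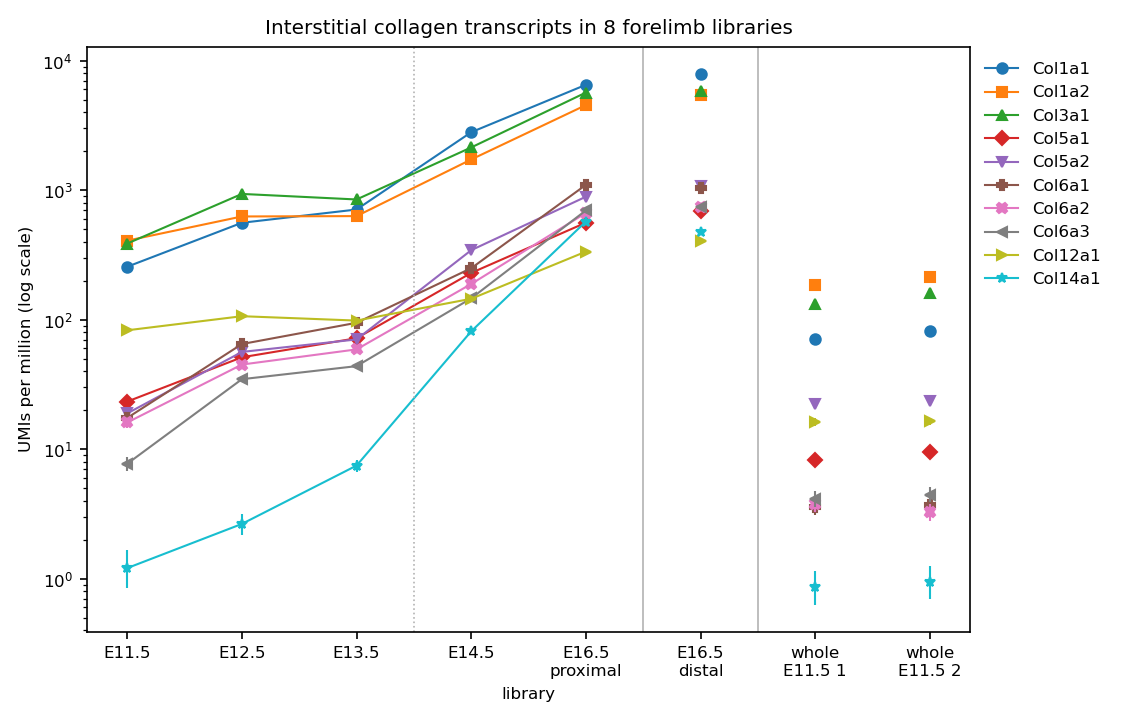
The level of each collagen gene in the 8 libraries, in CPM on a log axis, with 95% Poisson intervals as vertical bars where they are larger than the symbol. Lines join the sorted stages up to E16.5 proximal, and the dotted line marks the change from the v2 to the v3 kit. Col14a1 runs from 1.21 to 573 and Col12a1 from 82.8 to 335, and Col1a2 stands at 185 and 212 in the whole-limb libraries at the right.

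The differences were uneven over the stages. From E11.5 to E12.5, with the same kit and the same enzyme, 10 of 10 collagens were higher. Of the 9 that reached 10 CPM in either library all 9 were, where 44.1% of 8753 genes were, and 7 were higher by at least 2-fold in CPM + 1, where 2.05% were. Col14a1 lay below 10 CPM in both libraries, at a ratio of 2.19 (1.51 to 3.25), and is not part of those counts. Col6a3 had the largest ratio of that step, 4.5 (3.93 to 5.17), and Col12a1 the smallest, 1.28 (1.23 to 1.35). From E12.5 to E13.5, with the enzyme changing, none of the same 9 was higher by at least 2-fold, where 1.38% of 8727 genes were. Of the 9, 2 (Col3a1 and Col12a1) were lower, where 57.5% of genes were. Col14a1, again below 10 CPM in both libraries, had a ratio of 2.82 (2.28 to 3.51). From E13.5 to E14.5, across the kits, 9 of 10 were higher by at least 2-fold, where 4.18% of 8818 genes were. Col14a1 was higher by 10.9-fold there and Col12a1 by 1.47-fold.

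From E14.5 to E16.5 proximal, within the v3 kit, 10 of 10 were higher by at least 2-fold, where 5.01% of 8562 genes were. The ratios ran from 2.31 (2.28 to 2.35) in Col12a1 to 7.04 (6.90 to 7.18) in Col14a1, and the type VI chains stood at 4.40, 3.54 and 4.78. The E14.5 library held whole forelimbs and the proximal one the elbow region, so stage and segment cannot be told apart in this step. E16.5 distal gave 10 of 10 as well, where 7.61% of 8694 genes were at least 2-fold higher than at E14.5. The Cell Ranger version in the matrix headers also differed between E14.5 and E16.5 distal. Within the v2 kit as a whole, with the enzyme changing after E12.5, 7 of the 9 were at least 2-fold higher at E13.5 than at E11.5, where 4.42% of 8891 genes were. The ratios of the 10 ran from 1.19 in Col12a1 to 6.19 in Col14a1, which was below 10 CPM at both stages, with Col6a3 at 5.67.

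The cells that carried the collagens also changed. With each cell thinned to 3000 UMIs, the median number of the 10 collagens detected per cell was 2 at E11.5, 3 at E12.5 and E13.5, 5 at E14.5 and 8 in both E16.5 segments, against 1 in both whole-limb libraries. Col1a1 was seen in 47.8% of E11.5 cells (46.0% to 49.5%; 74.1% without thinning) and in 94.5% of E16.5 proximal cells (94.1% to 95%; 98.7% without thinning). Col14a1 was seen in 0.284% of E11.5 cells and 61.3% of E16.5 proximal cells (0.790% and 84.7% without thinning). The collagen UMIs were not held by a few cells: the 10% of cells with the most collagen UMIs held 23.4% to 27.4% of these UMIs in the sorted libraries and 33.2% and 35.5% in the whole libraries.

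The same shares were taken in cells that should lack these genes. In the 943 keratin-led cells of the E16.5 proximal library, which had a median of 37411 UMIs against 17912 in the other cells, Col1a1 was seen in 26.5% of cells at 3000 UMIs and Col14a1 in 9.76% (82.8% and 31.0% without thinning). Their Col1a1 level was 497 CPM against 6513 in the other cells. Whether these UMIs came from free RNA or from doublets was not tested. Shares at or below them are read as background in that library alone. In the 70 keratin-led cells of E14.5, Col14a1 was seen in 1.43% at 3000 UMIs. The sorted E11.5 to E13.5 libraries held no keratin-led cells, so how far background adds to the low levels there was not tested.

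Higher levels at the later stage were also seen inside named cell classes. Cells were clustered stage by stage without any collagen gene, and a cluster was named "-like" only where at least 3 listed markers of a class were raised in it (log2 fold of at least 1, seen in at least 10% of its cells). Since clusters were made for each stage, a class can hold different clusters at different stages. In each of the 7 classes present at both E14.5 and E16.5 proximal, all 10 collagens were higher at E16.5 proximal, where 11.3% of 7138 genes were higher in each of the 7. The within-class median ratio ran from 1.74 in chondrocyte-like cells to 3.10 in mitotic-like cells. Col14a1 had the largest ratio in 6 of the 7 classes, up to 16.7-fold in pericyte-like cells, and in dermal fibroblast-like cells Col6a3 did, at 7.21-fold. The smallest ratio was Col3a1 in chondrocyte-like cells, at 1.03-fold, and Col5a1 there was not clear of 1, at 1.05 (0.997 to 1.11). In the keratin-led cells, which should lack these genes, each of the 10 was also higher at E16.5 proximal than at E14.5. Col1a1 stood there at 267 and 497 CPM, Col3a1 at 254 and 402, Col12a1 at 27.2 and 32.7 and Col14a1 at 7.42 and 49.0. The part of such background in the class ratios was not tested. The chondrocyte-like cells of E14.5 came from a cluster led by Vwc2 and Six2 (473 cells) and one led by Matn1 (304 cells), and those of E16.5 proximal from a Matn1-led cluster alone. Between the Matn1-led clusters, a comparison chosen after seeing the data, all 10 were also higher at E16.5 proximal, where 41.1% of genes were, with a median ratio of 2.77, Col3a1 at 1.67 and Col14a1 at 14.5.

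Between E13.5 and E14.5 all 10 were higher in each of the 4 shared classes, where 19.3% of 7722 genes were, again with the kit changing between them. Col14a1 was 19.2-fold (8.17 to 59.5) and Col5a2 17.1-fold (12.1 to 25.1) higher in chondrocyte-like cells. Col6a1 was 1.15-fold (1.02 to 1.30) higher in tenocyte-like cells. Col14a1 stood at 2.01 CPM in the E13.5 chondrocyte-like cells, so any ratio over that level rests on few UMIs. The E13.5 chondrocyte-like cells were all of a Matn1-led cluster (410 cells), and between the Matn1-led clusters of E13.5 and E14.5 all 10 were higher as well, where 37.5% of genes were, Col14a1 by 8.34-fold, Col5a2 by 12.4-fold and Col6a1 by 1.27-fold.

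The ratio of UMIs between chains also differed between stages, and stage and kit cannot be told apart from E13.5 to E14.5. These ratios compare 3′ tags, which are not scaled for transcript length, and capture can differ between genes, so only the shift between libraries is described. The Col1a1 to Col1a2 ratio was 0.629 (0.612 to 0.647), 0.894, 1.12, 1.62, 1.43 and 1.46 in the sorted libraries in the same order, and 0.387 and 0.383 in the whole libraries. It went up within the v2 stages and down from E14.5 to E16.5. The Col3a1 to Col1a1 ratio was 1.51, 1.67 and 1.2 in the 3 sorted v2 libraries and 0.763, 0.871 and 0.732 in the 3 v3 libraries.

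The Col5a1 to Col5a2 ratio was 1.23 (1.11 to 1.38), 0.909 and 1.02 in the sorted v2 libraries and 0.667, 0.631 and 0.640 in the v3 libraries. It was 0.370 and 0.403 in the whole libraries. Among the type VI chains, Col6a3 to Col6a1 was 0.443, 0.535 and 0.463 in the sorted v2 libraries. It was 0.585 at E14.5 and 0.635 and 0.711 in the proximal and distal E16.5 segments. The fibril-surface pair shifted furthest among the pairs plotted. The Col12a1 to Col14a1 ratio was 68.6 (49.8 to 97.2), 40.2, 13.2, 1.78, 0.586 and 0.852 in the sorted libraries in that order.

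**Figure D2:**
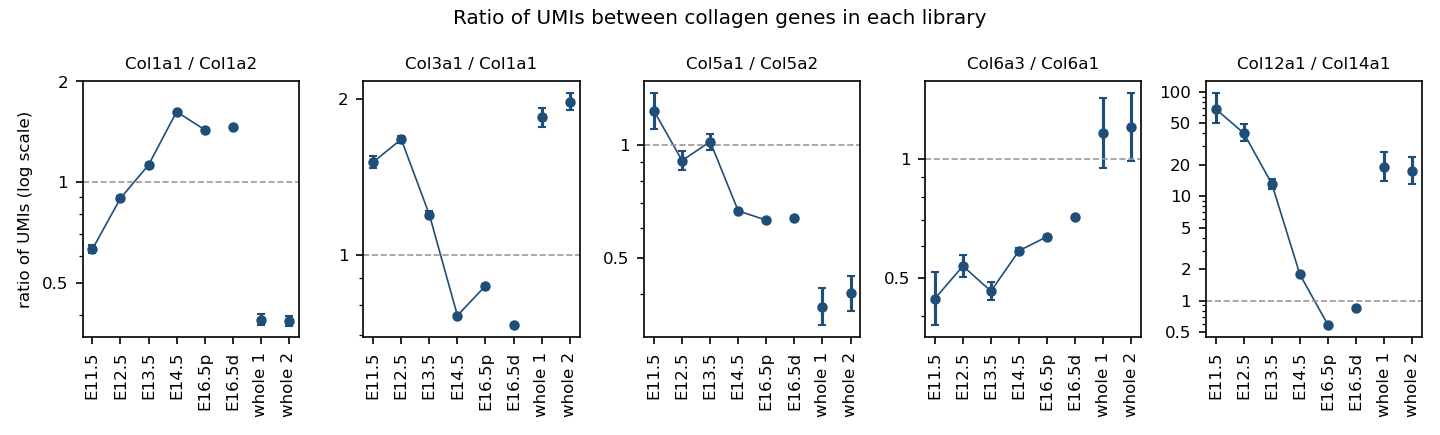
Ratios of UMIs between pairs of collagen genes in each library on log axes, with exact 95% intervals as bars, a line joining the sorted stages to E16.5 proximal and a dashed line at 1. The Col1a1 to Col1a2 ratio passes 1 between E12.5 and E13.5, and the Col12a1 to Col14a1 ratio goes from 68.6 to 0.586.

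At E16.5 the class with the highest level differed from collagen to collagen. The orders below are over named classes alone, so that the 3474 proximal and 2518 distal cells of unnamed clusters are left out, and are given within each segment, since the classes took different shares of the proximal and distal libraries, and joint-like cells reached 50 cells in the distal library alone. The type I chains were highest in osteogenic-like cells of the proximal segment, at 15933 CPM for Col1a1 and 10490 for Col1a2, followed by tenocyte-like cells at 11347 and 7073. In the distal segment tenocyte-like cells led, at 10968 and 7410 CPM, and dermal fibroblast-like cells stood at 10801 and 7255. Chondrocyte-like cells, which build a matrix of type II collagen, were the lowest named class for both chains in both segments, at 2861 and 4149 CPM for Col1a1. An unnamed cluster led by Rit2 and Ednrb was lower, at 2585 proximal and 3250 distal. Single clusters inside named classes also lay beyond these values. The dermal fibroblast-like cluster led by Gal and Sox2 stood at 2851 CPM proximal and 2925 distal for Col1a1. The fibroblast-like cluster led by Wfdc18, with 85 distal cells, stood distally at 17186 for Col1a1 and 14597 for Col1a2. The class orders depended on how the classes were drawn. With both segments pooled, no osteogenic-like class was found at a coarser clustering (resolution 0.5) or when cells were called one by one from at least 3 markers of a class, and tenocyte-like cells then led both chains, at 12518 and 13551 CPM for Col1a1. In cells called by markers, pericyte-like cells were lowest for both chains, at 1861 CPM for Col1a1 against 4554 in the pericyte-like clusters.

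Col3a1 had the same 2 leading classes and the same lowest class in both segments. It was highest in dermal fibroblast-like cells, at 10128 CPM proximal and 9377 distal, second in fibroblast-like cells, at 8344 and 7609, and lowest in chondrocyte-like cells, at 1275 and 1647. With both segments pooled, fibroblast-like cells came first instead at a finer clustering (resolution 2), at 9198 CPM against 7885, and in cells called by markers, at 8332 against 8094. For type V, among named classes Col5a1 was highest in fibroblast-like cells, at 739 CPM proximal and 839 distal, but the proximal value did not stand clear of dermal fibroblast-like cells at 733. Col5a2 was highest in osteogenic-like cells of the proximal segment, at 1327 CPM, and in fibroblast-like cells of the distal segment, at 1301. An unnamed cluster led by Sfrp4 and Grin2a, with 643 proximal and 524 distal cells, stood above these classes for both chains, with Col5a1 at 764 and 892 CPM and Col5a2 at 1535 and 1809.

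Among named classes all 3 type VI chains were highest in dermal fibroblast-like cells in both segments. Col6a1 stood there at 1661 CPM proximal and 1445 distal, Col6a2 at 1095 and 1025, and Col6a3 at 924 and 998. An unnamed cluster led by the muscle fibre genes Acta1 and Tnnc2 (2537 proximal and 113 distal cells) was higher for Col6a3 proximally, at 987, and for all 3 chains distally, at 1819, 1160 and 1337. The lowest class was the chondrocyte-like one for Col6a1 and Col6a3 in both segments and for Col6a2 in the proximal segment, and the tenocyte-like one for Col6a2 in the distal segment, at 362 CPM.

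Col12a1 ran the other way from type VI. It was highest in osteogenic-like cells of the proximal segment, at 997 CPM, and in chondrocyte-like cells of the distal segment, at 1022, and lowest in pericyte-like cells of the proximal segment, at 168, and in dermal fibroblast-like cells of the distal segment, at 191. Col14a1 was highest in fibroblast-like cells of the proximal segment, at 887 CPM, and in joint-like cells of the distal segment, at 739, and the unnamed cluster led by Sfrp4 and Grin2a stood above both, at 1041 and 1069. At E13.5 and E14.5, Col14a1 was highest in dermal fibroblast-like cells, at 52.6 and 253 CPM, and at E14.5 Col6a3 was highest in pericyte-like cells, at 299 CPM.

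Clusters gave a finer view than classes. Over the 18 E16.5 clusters outside the keratin-led ones, with the cells of both segments pooled, Col12a1 spanned 16-fold, from 68.1 CPM in a dermal fibroblast-like cluster led by Gal and Sox2 to 1086 CPM in a chondrocyte-like cluster led by Sema3e and Cytl1. Col14a1 spanned 9.55-fold, from 126 CPM in the same Gal and Sox2 cluster to 1203 CPM in a fibroblast-like cluster led by Wfdc18 and Fabp4. Col6a3, in contrast, was highest in the Gal and Sox2 cluster, at 1298 CPM. Among the 14 clusters with at least 50 proximal cells, the summed share of the 10 collagens was lowest in the chondrocyte-like cluster led by Matn1, at 0.831% of UMIs, and stood at 3.52% in the dermal fibroblast-like cluster led by Rspo1. Among the 18 with at least 50 distal cells it ran from 1.26% (Sema3e-led, chondrocyte-like) to 5.85% in the 85 cells of the Wfdc18-led fibroblast-like cluster, with the Rspo1-led one at 4.02%.

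**Figure D3:**
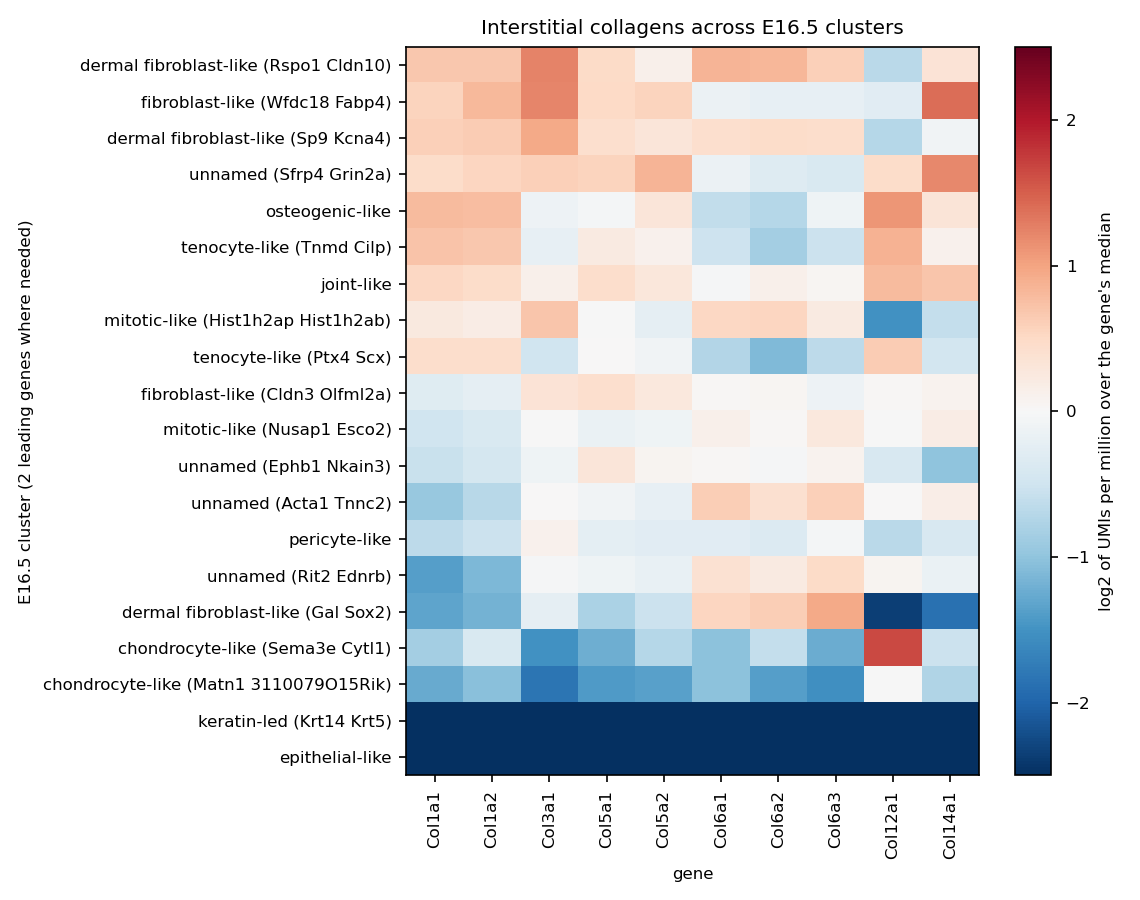
The level of each collagen in the 20 E16.5 clusters, with both segments pooled, as the log2 of CPM over the gene's median cluster, with colours ending at the limits of the scale and clusters named by class and, where a class holds more than 1 cluster or none was named, by 2 leading genes. Keratin-led and epithelial-like clusters at the bottom are below the scale for all 10 genes, and Col12a1 is lowest outside them in the Gal and Sox2 cluster, where Col6a3 is highest.

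Genes of one collagen type followed each other over these 18 clusters. Pearson's r of log2(CPM + 1) was 0.99 for Col1a1 with Col1a2, 0.92 for Col5a1 with Col5a2, 0.95 for Col6a1 with Col6a2, 0.92 for Col6a1 with Col6a3 and 0.88 for Col6a2 with Col6a3. Across types the values were lower. Col3a1 with Col5a1 had 0.85, Col1a1 with the type VI chains had -0.04 to -0.01, and Col12a1 with the type VI chains had -0.67 to -0.62. These are descriptions over clusters that share libraries and total UMIs. With the keratin-led clusters included, at 20 clusters, Col1a1 with Col6a1 had 0.75 and Col12a1 with Col6a1 had 0.46.

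**Figure D4:**
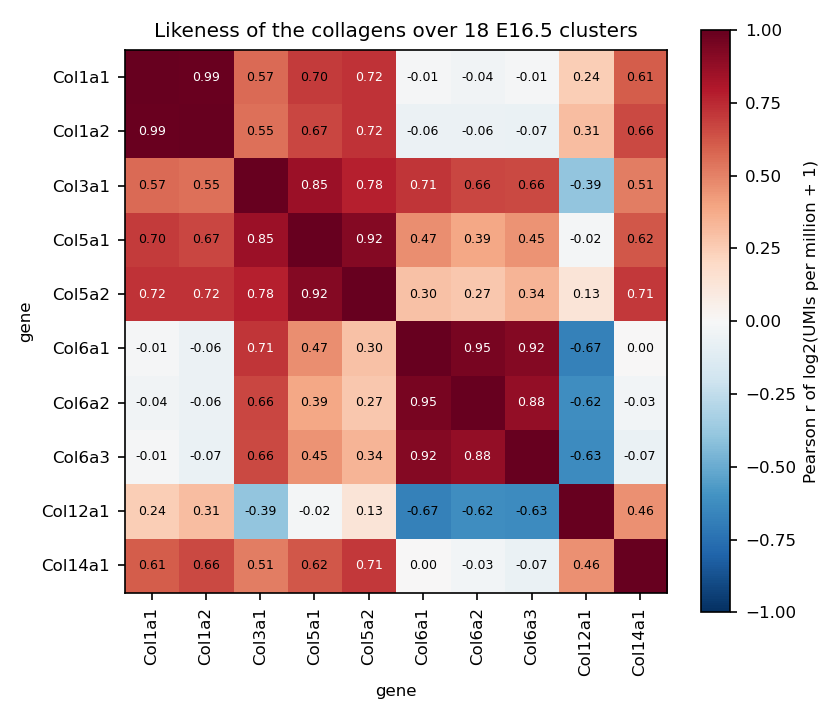
Pearson's r between the collagens over the 18 E16.5 clusters outside keratin-led ones, on log2 of CPM plus 1. The type I pair (0.99), the type V pair (0.92) and the 3 type VI chains (0.88 to 0.95) form blocks, and Col12a1 is below 0 with each type VI chain.

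The 10 collagens themselves were left out of every search for the most similar genes. The genes most like the mean of the 10 depended on what was compared. Over the 8 libraries, among 4735 genes, they were Adamts5, Fam114a1, Nucb2, Scara3 and Vim, with r of 0.995 to 0.997. Over the 20 clusters, among 5249 genes, they were Gpx7, Fkbp7, Creb3l1, Zcchc24 and Dlc1 (0.953 to 0.969), and over the 18 clusters without keratin-led ones, among 4802 genes, Sntb2, Svep1, Rnase4, Lox and Adamts2 (0.847 to 0.864). Fkbp7 is a chaperone of the endoplasmic reticulum, Lox crosslinks collagen and Adamts2 removes the amino-terminal propeptide of procollagen. For single genes over the 18 clusters, Lox was most like Col1a1 (0.88) and Col1a2 (0.90), Rnase4 like Col3a1 (0.90), Svil like Col5a1 (0.89) and Col5a2 (0.91), Plin2 like Col6a1 (0.94) and Col6a2 (0.88), Lama2 like Col6a3 (0.93), Thbs2 like Col12a1 (0.91) and Fkbp7 like Col14a1 (0.86).

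The distal and proximal E16.5 segments differed by less than 2-fold for each collagen as wholes. The matrix headers named Cell Ranger 3.0.2 for the proximal library and 6.0.1 for the distal one. Segment and count processing therefore cannot be told apart in any ratio between these 2 libraries. Col1a1, Col1a2, Col5a1, Col5a2 and Col12a1 were 1.20- to 1.22-fold higher distally, Col6a2, Col6a3 and Col3a1 1.10-, 1.06- and 1.02-fold higher, and Col6a1 and Col14a1 lower, at 0.944 (0.938 to 0.950) and 0.824 (0.817 to 0.832). Of the 10, 8 were higher distally, where 56.4% of 8380 genes were, and 2 were lower, where 43.6% were. None differed by 2-fold, where 3.22% of genes were at least 2-fold higher and 1.72% at least 2-fold lower. Muscle fibre markers moved with the segment: their summed level was 95.4 CPM proximal and 24.0 distal, and the clusters set aside for muscle fibre genes held mostly proximal cells. Without those clusters Col6a1 was at 1.05 and Col3a1 at 0.963, so the direction for these 2 genes turns without them. With TMM scaling, Col3a1, Col6a2 and Col6a3 were below 1 as well, at 0.922, 0.991 and 0.951.

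Inside classes the segment ratios varied, from 0.524 to 3.22. In chondrocyte-like cells all 10 were higher distally, where 60.4% of genes were, with a median of 1.51, Col12a1 at 3.22 (3.12 to 3.33) and Col6a2 at 2.01. Most distal chondrocyte-like cells came from the cluster led by Sema3e and Cytl1, which held no proximal cell, and the proximal ones from the cluster led by Matn1. Inside the Matn1 cluster, with 76 distal and 1064 proximal cells, all 10 were also higher distally, by 1.38- to 2.78-fold, where 61.1% of genes were higher. In pericyte-like cells all 10 were higher distally by 1.37- to 1.84-fold, where 55% of genes were.

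Other classes were mixed. In osteogenic-like cells 6 of 10 were lower distally, where 38.6% of genes were: Col14a1 stood at 0.524, Col12a1 at 0.569, Col1a2 at 0.591 and Col1a1 at 0.622, while Col6a2 stood at 1.76 and Col6a3 at 1.90. In dermal fibroblast-like cells 5 of 10 were lower, where 46.4% of genes were, and Col14a1 stood at 0.690. The proximal cells of that class came mostly from the cluster led by Rspo1, and the distal ones from the cluster led by Sp9. Inside the Rspo1 cluster, with 334 distal and 1048 proximal cells, 8 of 10 were higher distally, where 54.3% of genes were, with Col6a1 at 1.22, Col6a2 at 1.31 and Col3a1 at 1.16, where these 3 stood below 1 in the class as a whole. In fibroblast-like cells 4 were lower (44.5% of genes), in mitotic-like cells 6 (39.5%) and in tenocyte-like cells 5 (44%). Col14a1 was below 1 in each of these 5 classes. Most distal fibroblast-like cells (578 of 663) came from the cluster led by Cldn3, inside which 6 of 10 were higher distally (54.4% of genes), with Col14a1 at 0.891 and Col12a1 at 0.814, and 821 of 1575 proximal ones from the cluster led by Wfdc18. Inside that one, with 85 distal cells, all 10 were higher distally by 1.32- to 1.99-fold, where 47.7% of genes were higher, and Col14a1 stood at 1.65. Inside the tenocyte-like cluster led by Ptx4, 9 of 10 were higher distally (60.3% of genes) and Col14a1 stood at 1.44, and inside the one led by Tnmd 2 of 10 were (53.3%). Of the mitotic-like clusters, the one led by Nusap1 had 5 of 10 higher distally (62.3% of genes) and the one led by Hist1h2ap had all 10 lower (43% of genes).

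**Figure D5:**
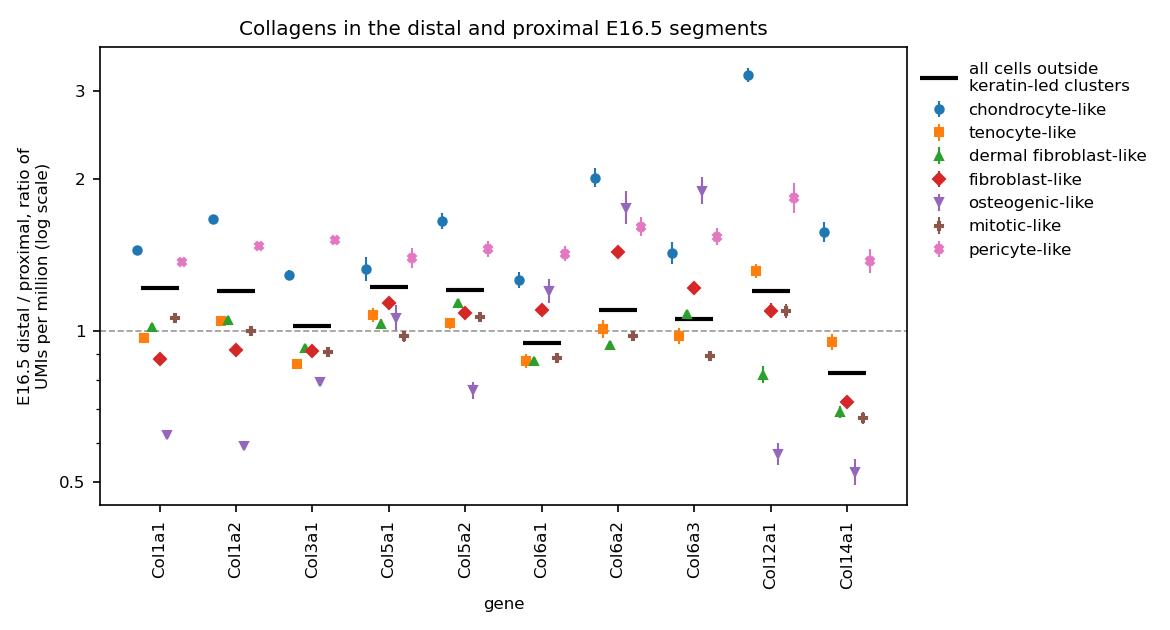
The ratio of CPM in the distal over the proximal E16.5 segment for each collagen, on a log axis, in all cells outside keratin-led clusters (black bars) and in 7 named classes (symbols, with exact 95% intervals). All black bars lie between 0.824 and 1.22, chondrocyte-like and pericyte-like symbols lie above 1 for every gene, and Col12a1 in chondrocyte-like cells is at 3.22.

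Most collagen levels were lower in cells with mitotic markers. In each library, cells with none of 8 mitotic markers at 3000 UMIs were compared with cells holding at least 3. Col1a1, Col1a2, Col3a1, Col5a1 and Col6a1 were higher in the non-mitotic cells in all 8 libraries. Of the 6 collagens with at least 10 CPM in either kind of cell of every library, 4 were, where 21.7% of 6853 genes were. Of the 80 ratios of a gene in a library, 74 were above 1, and no share of all genes was taken for that count. Col6a1 had the largest median ratio over the libraries, 1.78 (range 1.05 to 2.84), and Col1a2 stood at 1.22 (1.13 to 1.63). Of the 6 ratios below 1, 2 were Col14a1, at 0.342 (0.101 to 0.919) at E11.5 and 0.769 (0.595 to 0.997) at E13.5. Mitotic cells had more UMIs, with a median of 11688 against 8026 at E11.5 and 24821 against 16883 at E16.5 proximal. Whether this difference in UMIs, or in cell class, plays a part was not tested. With a total that left out mitochondrial, ribosomal, haemoglobin and collagen genes, 8 of 10 were higher in all 8 libraries. The share of all genes under that total was not taken.

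The sorted and whole-limb cells of E11.5 made up the only comparison with a replicated group. Cells outside clusters named for glia, blood, endothelium, epithelium or muscle were summed per library and tested with edgeR's quasi-likelihood test over 15080 genes. The lone sorted library was assumed to vary like the 2 whole-limb libraries, with 1 residual degree of freedom, and whether those came from separate embryos is not stated, so the p-values may measure technical spread. The test passed 53.3% of all genes at an adjusted p of 0.05, 26.8% higher and 26.5% lower in sorted cells. The whole and sorted cells also clustered apart: the 3 clusters with 50 or more sorted cells held 3060 of 3156 sorted cells and 13 of 10442 whole-limb cells. The whole-limb files also differed in form, with no Cell Ranger version in their headers and no barcode under 2396 and 2274 UMIs, against 500 to 502 in the sorted libraries, and tdTomato was at most 2 UMIs in any of their cells. The study placed E11.5 tdTomato+ cells mostly in the proximal limb. Hoxa13 and Hoxd13 are genes of the distal limb field. Cells without a UMI of either were 2997 of 3156 sorted, 3264 of 5107 whole 1 and 3519 of 5335 whole 2 cells. Sort, position in the limb, library, source of the limbs and processing therefore cannot be told apart.

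Against that background 9 of the 10 collagens passed, 8 of them higher in sorted cells. The largest differences were those of Col12a1 (log2 difference 2.09, SE 0.11), Col6a1 (2.00, SE 0.15) and Col6a2 (1.93, SE 0.16). How small the adjusted p-values were depended strongly on the low-count filter for each of the 9 that passed, so effect sizes alone are given for them. Col1a1 was higher by 1.48 (SE 0.09), Col5a1 by 1.19 (SE 0.14), Col3a1 by 1.13 (SE 0.10), Col1a2 by 0.77 (SE 0.10) and Col6a3 by 0.61 (SE 0.17). For these 8 genes the sorted level lay above both whole-limb levels. Col5a2 was lower in sorted cells, by a log2 difference of -0.53 (SE 0.13), at 19.0 CPM against 23.8 and 24.8. Col14a1, at 1.21 against 0.939 and 1.02 CPM, did not pass (0.13, SE 0.34, adjusted p = 0.77), and its 38, 44 and 48 UMIs leave a wide margin. Col6a3 did not pass with DESeq2 (adjusted p = 0.13) or in cells without a UMI of Hoxa13 or Hoxd13 (adjusted p = 0.12), the genes of the distal limb field.

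The genes that make, fold and crosslink collagen were read beside the chains, from 5 lists. From E11.5 to E16.5 proximal, 9 of the 12 hydroxylases, glycosyltransferases and their partners at 10 CPM or more were at least 2-fold higher, where 12.3% of all genes were, among them Crtap (17.9 to 158 CPM) and P3h1 (36.4 to 144), partners in prolyl 3-hydroxylation, and P4ha2 (18 to 137), a prolyl 4-hydroxylase subunit. Of the 9 chaperone and secretion genes, 5 were at least 2-fold higher, with Creb3l1, a transcription factor of the secretory pathway, going from 8.98 to 113 CPM and Ppib, a prolyl isomerase, from 293 to 1485. Of 8 processing and crosslinking genes, 7 were, with Lox going from 6.16 to 174 CPM and Adamts2 from 2.70 to 61.3. All 10 other chains of these families at 10 CPM or more were, with Col5a3 going from 0.0317 to 102 CPM, a level of 1 UMI at E11.5, and Col9a3 from 16.5 to 907. Chondrocyte markers, summed over 7 genes, stood at 366 CPM at E11.5 and 1372 at E16.5 proximal, and their part in the levels of cartilage chains such as Col9a3 was not tested. Of 5 receptors 3 were at least 2-fold higher, and Ddr1, a collagen-binding kinase, was lower, at 19.0 and 11.8 CPM. No gene of the 5 lists was at least 2-fold lower, where 27.9% of all genes were.

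Between the segments only the list of other collagen chains held genes that differed by 2-fold. Of 11 other chains, 5 were at least 2-fold lower distally, where 1.72% of all genes were, namely Col2a1, Col9a1, Col9a2, Col9a3 and Col11a2, chains of cartilage collagens. Col2a1 stood at 2063 CPM proximal and 484 distal, and Col9a3 at 907 and 191. Chondrocyte marker genes stood beside them at 1372 and 377 CPM summed over 7 genes, and their part in the difference was not tested. No gene of the other 4 lists differed by 2-fold.

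In sorted E11.5 cells 7 hydroxylase-list genes of 13 tested were higher and 2 lower than in whole-limb cells, with P3h3 at a log2 difference of 1.45 (SE 0.12) and Plod1 at 1.12 (SE 0.14). Of 9 chaperone genes 5 were higher and 3 lower, and Sec24d, which carries procollagen out of the endoplasmic reticulum, stood at 1.50 (SE 0.14). Of 11 processing genes 7 were higher and 1 lower, and Loxl1 stood at 1.40 (SE 0.14) and Bmp1, the carboxy-terminal procollagen proteinase, at 1.31 (SE 0.11). Of 13 other chains 3 were higher and 1 lower, with Col9a2 at 2.15 (SE 0.12) and Col9a1 at -1.34 (SE 0.10), and of 7 receptors 1 was higher and 1 lower, with Ddr1 at 0.92 (SE 0.14). The same test passed 26.8% of all genes higher and 26.5% lower.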

How the data were processed

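The authors deposited 10x Genomics UMI counts per gene and cell for 8 libraries, made per the labels with Cell Ranger (3.0.2 in the matrix headers of 5 sorted libraries, 6.0.1 for E16.5 distal) and mm10, with 3 added features. From these deposited counts, cells with at least 3000 UMIs and at most 10% mitochondrial UMIs were kept, clustered per stage (scanpy 1.11.5, Leiden 0.10.2, 2000 variable genes without collagens, 50 components, 25 neighbours, resolution 1) and named from fixed markers. Epithelial-like and keratin-led clusters were left out. Levels are UMIs per 1000000 (CPM), summed over cells. For detection, cells were thinned to 3000 UMIs. Ratios carry exact 95% intervals that cover counting error only. Background shares are over genes whose larger level was 10 CPM or above, with ratios of CPM + 1. Sorted and whole-limb E11.5 sums were tested with edgeR 4.0.16 (quasi-likelihood, TMM, filterByExpr, Benjamini-Hochberg at 0.05), checked on simulated counts. DESeq2 1.42.0 and limma-voom 3.58.1 were alternatives.

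All 10 collagens are named throughout. From each of 5 pathway lists up to 4 genes with the largest log2 ratios at 10 CPM or more were named, and the most similar genes were taken by Pearson's r among genes at 50 CPM or more. The members and lists were chosen with earlier results of these data known. Choices made after seeing the clusters were to leave clusters with muscle fibre genes unnamed in sorted libraries, to leave a small platelet-led cluster unnamed, to treat a keratin-led cluster as epithelial and to leave muscle fibre-like cells out of the E11.5 test. The joint-like name rests on 3 markers. Doublets were kept in the main values. Scrublet's automatic threshold marked under 0.5% of cells in most libraries, so the alternative removed the top 6% of scores. Sequences were read from GENCODE M21 transcripts (GRCm38).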

Additional observations from a re-analysis of the deposited data

Results flagged for a closer look

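The ratio of the distal over the proximal E16.5 segment went one way in one cell class and the other way in another class for each of the 10 collagens. No share of all genes was taken for that count, so it is not read as particular to the collagens. With 1 library for each segment the difference between classes was not tested. Col1a1 stood at 1.45 in chondrocyte-like cells and 0.622 in osteogenic-like cells, Col1a2 at 1.67 and 0.591, Col5a2 at 1.65 and 0.762, Col12a1 at 3.22 and 0.569, and Col14a1 at 1.57 and 0.524 in the same classes. Col3a1 stood at 1.51 in pericyte-like and 0.792 in osteogenic-like cells. Col5a1 stood at 1.39 in pericyte-like and 0.976 (0.952 to 0.9998) in mitotic-like cells, and inside the 2 mitotic-like clusters it went both ways, at 1.08 (led by Nusap1) and 0.768 (led by Hist1h2ap). Col6a1 stood at 1.42 in pericyte-like and 0.870 in dermal fibroblast-like cells, but inside the dermal fibroblast-like clusters with at least 50 cells of each segment it stood at 1.22 (led by Rspo1) and 1.08 (led by Gal). Col6a2 stood at 2.01 in chondrocyte-like and 0.936 in dermal fibroblast-like cells, and at 1.31 and 1.24 inside the same 2 clusters. Col6a3 stood at 1.90 in osteogenic-like and 0.891 in mitotic-like cells.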

How the results depend on the processing

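All 10 collagens were at least 2-fold higher at E16.5 proximal than at E11.5 under each alternative run. Between sorted and whole-limb E11.5 cells, the 8033 genes past the threshold became 4848 with DESeq2 and 4940 with no low-count filter, with 8 and 9 collagens past it. Col6a3 missed the threshold with DESeq2 (log2 0.58, adjusted p = 0.13) and in cells without a UMI of Hoxa13 or Hoxd13 (0.32, adjusted p = 0.12, edgeR). Col14a1, which did not pass, turned to -0.25 in those cells and to -0.30 in thinned cells. Over all 10, the median log2 difference was 0.87 in cells without a UMI of Hoxa13 or Hoxd13, against 1.16 in the main run. Col1a2 was at 0.36 there (0.77 in the main run), Col3a1 at 0.72 (1.13) and Col5a2 at -0.69 (-0.53). The 2 collagens lower distally became 1 with all barcodes, 1 with epithelial-like clusters kept, 1 as a mean over named classes and 5 with TMM factors. Col6a1 turned to 1.08 with all barcodes, 1.08 with epithelial-like clusters kept and 1.05 without the muscle fibre clusters. Col3a1 turned to 0.975 without chondrocyte-, tenocyte- and epithelial-like clusters, 0.922 with TMM factors and 0.963 without the muscle fibre clusters. With TMM factors Col6a2 turned to 0.991 and Col6a3 to 0.951. The 5 collagens higher in non-mitotic cells of each library became 8 with the total that left out mitochondrial, ribosomal, haemoglobin and collagen genes and 4 with epithelial-like clusters kept, where Col6a1 was above 1 in 7 of 8 libraries. Over the E16.5 classes, with both segments pooled, the leading class was the same for 7 of 10 collagens at resolution 0.5, 8 at resolution 2, 10 with collagen genes kept in the clustering and 6 with cells called by markers. The Col14a1 ratio of 475 became 1149 in cells without mitotic markers, which hold only a part of its 38 UMIs at E11.5. The cause of these changes was not tested. The muscle fibre, class-mean and Matn1-cluster alternatives were chosen after seeing the data.

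Leaving out either whole-limb library left no residual degrees of freedom and so no test. The log2 differences then ran from 1.39 to 1.59 for Col1a1, 0.67 to 0.89 for Col1a2, 0.99 to 1.29 for Col3a1, 1.08 to 1.30 for Col5a1, -0.57 to -0.48 for Col5a2, 1.95 to 2.04 for Col6a1, 1.81 to 2.04 for Col6a2, 0.58 to 0.65 for Col6a3, 2.08 to 2.09 for Col12a1 and 0.06 to 0.20 for Col14a1. No paired analysis was possible because the sorted group is 1 library and shares fewer than 2 replicate numbers with the whole-limb group. Depth limits Col14a1 most, with 38 UMIs at E11.5.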
